A study of Homo sapiens with 6 samples.

Results

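The pyruvate dehydrogenase kinases PDK1, PDK2, PDK3 and PDK4 and the phosphatases PDP1 and PDP2 were followed in T47D cells exposed to GDC-0941, an inhibitor of PI3 kinases. Every array probe set annotated to only 1 of these 6 genes was taken, with symbols updated through the Entrez identifier, which gave 15 of the 54613 probe sets tested. They cover 5 of the 6 genes, with 3 probe sets for PDK1, 2 for PDK2, 5 for PDK3, 3 for PDK4 and 2 for PDP1. No probe set was assigned to PDP2, which was not analysed here.

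The pyruvate dehydrogenase complex of mitochondria turns pyruvate into acetyl-CoA and so links glycolysis to the citric acid cycle. The PDK enzymes phosphorylate its E1 alpha subunit and switch the complex off, and the PDP phosphatases remove the phosphate and switch it on. PDK1 and PDK3 are known targets of the hypoxia factor HIF-1, and PDK4 is a known target of FOXO factors, which AKT holds out of the nucleus, and is induced in starvation in many tissues. Transcript levels do not show how far the complex is phosphorylated.

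T47D is an established human luminal breast cancer line. All cells grew in DMEM to which fetal bovine serum, glutamine and non-essential amino acids had been added. One group of 3 arrays came from cells given GDC-0941, which inhibits the class I PI3 kinases, for 6 hours. The other 3 arrays came from control cells whose agent is labelled as none, with no word on solvent. Their titles give no time of collection. Any effect of solvent or of collection time cannot be told apart from that of GDC-0941 in these groups. The labels write the dose as 1 mM. That unit is uncertain, because a micro sign may have been lost. The comparison asks which transcripts respond to the inhibitor. Whether the replicates are separate cultures is not stated. The p-values therefore set each difference only against the spread among these samples, and that spread may be technical.

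Levels are deposited log2 RMA signals, in which each array is normalized to the others. Array medians lay between 7.34 and 7.38. The 9 luminal markers on the marker list had mean levels of 11.9 to 14.3. Of these, 3 were higher and 2 lower after treatment in limma at an adjusted p under 0.05, by which 12.1% of all genes were higher and 15.6% lower. Their summed levels ran from 119.3 to 119.5 on the control arrays and from 119.8 to 120.2 under treatment. Of 15 measured basal, fibroblast, leukocyte and endothelial markers, 1 fibroblast marker was higher and 1 basal marker lower by the same rule. Summed levels of the fibroblast list ran from 40.9 to 41.5 on the control arrays and from 41.7 to 42.5 under treatment. Those of the basal list ran from 32.63 to 32.82 and from 32.02 to 32.37. The leukocyte and endothelial sums overlapped between groups. Mean levels ran from 6.17 to 9.68 for the basal, 7.20 to 10.68 for the fibroblast, 6.12 to 8.81 for the leukocyte and 5.66 to 9.43 for the endothelial markers. The lowest value in the data was 3.00, so no marker could read 0, and these levels do not show whether a marker is absent. The part of these markers in the results below was not tested. In such bulk RNA, a change in the share of cells and a change in RNA per cell cannot be told apart.

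Under GDC-0941, PDK4 was 2.20-fold and PDK2 1.29-fold higher and PDK1 1.59-fold lower, each on the gene's brightest probe set. The phosphatase PDP1 was 1.18-fold lower. The 5 probe sets of PDK3 differed by -0.05 to -0.31 on the log2 scale, and none passed. Probe sets were called at an adjusted p under 0.05 in limma, with Benjamini-Hochberg adjustment over all 54613. By that rule 7 of the 15 probe sets passed (46.7%), against a background of 18.8% of all probe sets. Of the 15, 4 were higher, where 8.88% of all probe sets were, and 3 were lower, where 9.89% were. Probe sets of a gene read the same transcripts and are not independent. The median log2 difference was -0.11 over the 15 and -0.01 over all probe sets (0.06 and 0.16 with the arrays centred on spiked-in controls, as below). In 9 of the 15 the groups did not overlap, 4 with treatment above and 5 with treatment below, and this held for 34.3% of all probe sets.

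**Figure D1:**
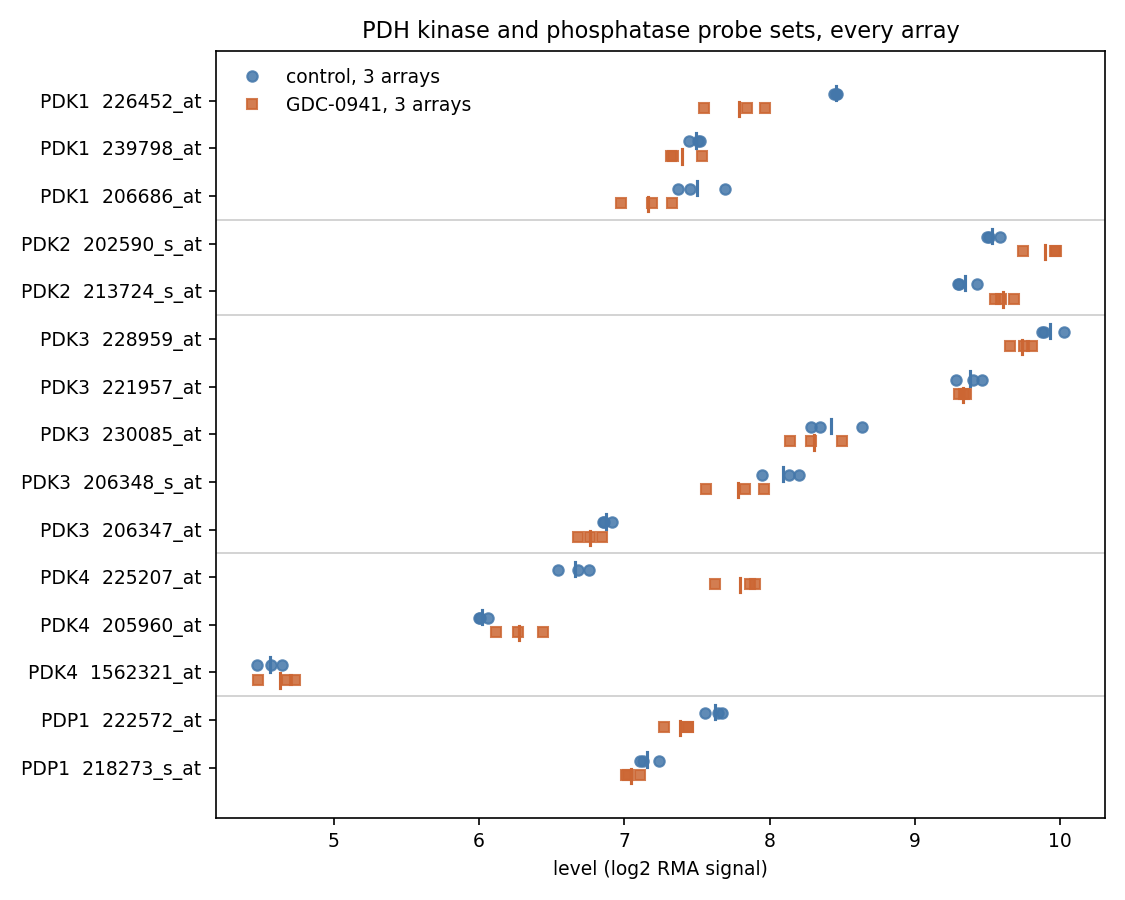
Level of each of the 15 probe sets (horizontal axis, log2 RMA signal) on the 3 control arrays (circles) and the 3 GDC-0941 arrays (squares), with vertical ticks at the group means. PDK4 225207_at shows the widest gap, from at most 6.76 in controls to at least 7.63 under GDC-0941, and PDK1 226452_at the widest gap in the other direction.

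Promoter sequence is shown for the 4 kinases, to set them beside the factors known to control these genes. RefSeq windows (GRCh38.p14) were matched for 5 of the 6 genes, all but PDP1, and covered 8 start sites, and the 250 bases before each start were searched on both strands. The PDK4 window lies at chr7:95596517-95596766 on the minus strand, just outside the gene, and overlaps the annotated antisense RNA PDK4-AS1. The stretches of PDK1 (chr2:172556062-172556089), PDK2 (chr17:50095211-50095238) and PDK3 (chrX:24465213-24465240), all on the plus strand, hold the core of the hypoxia response element. Those of PDK1 and PDK2 stand before alternative starts inside the outer bounds of the gene, and that of PDK3 stands before the gene. Capitals mark a CCAAT box, read on the opposite strand, in PDK4, and the hypoxia core ACGTG or its reverse CACGT in the other genes.
PDK4: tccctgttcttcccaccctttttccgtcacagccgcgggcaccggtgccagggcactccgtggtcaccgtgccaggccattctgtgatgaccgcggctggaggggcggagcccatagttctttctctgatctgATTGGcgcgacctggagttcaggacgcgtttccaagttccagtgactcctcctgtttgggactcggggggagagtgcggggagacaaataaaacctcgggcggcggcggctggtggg
PDK1: ctgctgcccgcCACGTccctCACGTacc
PDK2: ccgggggaagcCACGTGccggggcggaa
PDK3: cgcgcgccgcgtACGTGcagcaaccgac

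The hypoxia core ACGTG occurred in 4 of the 8 windows of the kinase and phosphatase genes and in 18.5% of all 35116 windows. In PDK1 it stood 2 times, at 17 to 13 and at 8 to 4 bases before the downstream of its 2 starts. In PDK3 it stood once, 61 to 57 bases before the start. In PDK2 the palindrome CACGTG was read on both strands before the second of its 3 starts. The remaining window with the core is that of PDP2, with 3 matches. The windows with the core held 65.6 to 79.6% G and C, and those without it 35.6 to 64.4%. The share over all windows was not matched for this content. The CCAAT box occurred in 5 of the 8 windows and in 32% of all, with 3 copies before that PDK2 start. The FOXO core GTAAACA was in none of the 8 windows and in 2.98% of all. The motif of the oestrogen-related receptors, AAGGTCA, was also in none, against 3.44% of all. With shares this low over all windows, 8 windows are too few to show that these genes lack either motif. Bases outside the windows were not searched, for PDK4 or any other gene. The matches found describe letters in short windows and are not binding sites.

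PDK4 (chr7:95583499-95596516, GRCh38.p14, on the minus strand) is the kinase best known for its control by fasting and FOXO factors. Its probe set 225207_at read 6.54, 6.68 and 6.76 on the control arrays and 7.90, 7.87 and 7.63 under GDC-0941. The groups lay apart by more than either group's own range. The log2 difference was 1.14 ± 0.08 (SE; limma adjusted p = 8.65e-06), from 6.66 ± 0.11 to 7.80 ± 0.15 (mean ± SD, n = 3 each). It passed in each of the 13 alternatives it entered, with differences of 1.01 to 1.31. The second probe set, 205960_at, read 6.00, 6.01 and 6.06 in controls and 6.44, 6.27 and 6.12 under treatment. All treated arrays lay above the controls, but the difference was small, 0.25 ± 0.08 (SE; limma adjusted p = 0.0499). That call was lost in 11 of 13 alternatives, among them without treated replicate 1 or 2 and without any 1 control array (adjusted p 0.0703 to 0.139 in limma). The third, 1562321_at, ran from 4.47 to 4.65 in controls and from 4.48 to 4.73 under treatment. Its groups overlapped, and the difference of 0.07 ± 0.08 (SE) did not pass (adjusted p = 0.625 in limma). By mean level over the 6 arrays, 225207_at stood at percentile 46.9 of all probe sets, 205960_at at 24.2 and 1562321_at at 7.4. The part of these low levels in the smaller differences was not tested. Averaged over its 3 probe sets, PDK4 differed by 0.49 and still passed. Within arrays, 225207_at moved by 0.89 more than 205960_at and by 1.07 more than 1562321_at. The treated and control arrays did not overlap in either gap, but 3 arrays against 3 cannot give a two-sided exact permutation p below 0.1, which both had (0.36 adjusted over 18 pairs of probe sets).

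PDK2 (chr17:50094737-50112152), the kinase found in most tissues, rose on both of its probe sets. Probe set 202590_s_at read 9.50, 9.51 and 9.58 in controls and 9.97, 9.75 and 9.96 under GDC-0941. Every treated array lay above every control. The log2 difference was 0.36 ± 0.07 (SE; limma adjusted p = 0.00459), from 9.53 ± 0.05 to 9.89 ± 0.13 (mean ± SD, n = 3 each). It passed in all 14 alternatives, at 0.32 to 0.53. Probe set 213724_s_at read 9.30, 9.30 and 9.43 in controls and 9.59, 9.55 and 9.68 under treatment, again with no overlap. Its difference was 0.26 ± 0.07 (SE, adjusted p = 0.0153 in limma). Leaving out treated replicate 3, or replicate 1 or 2 of the controls, ended the call on 213724_s_at (limma adjusted p 0.0571 to 0.0769). Both names end in _s_at, the manufacturer's mark for probe sets that can match several transcripts. The probe sets differed by 0.10 in their response (two-sided exact permutation p = 0.3).

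PDK1 (chr2:172555373-172724312), the kinase best known for shutting pyruvate oxidation in hypoxia, fell. It is a separate gene from PDPK1, the AKT-activating kinase that shares the protein name PDK1. Probe set 226452_at read 8.47, 8.44 and 8.46 in controls and 7.97, 7.55 and 7.85 under GDC-0941. The controls lay close together, and the treated arrays were all lower and more spread. The log2 difference was -0.67 ± 0.09 (SE; limma adjusted p = 0.000482), from 8.46 ± 0.01 to 7.79 ± 0.21 (mean ± SD, n = 3 each). It passed in all 14 alternatives, with differences of -0.76 to -0.50. Probe set 206686_at read 7.45, 7.69 and 7.37 in controls and 6.98, 7.19 and 7.33 under treatment. The highest treated array came close to the lowest control without crossing it. Its difference was -0.34 ± 0.10 (SE, adjusted p = 0.0381 in limma). The call on 206686_at was lost without treated replicate 1 or 2 or control replicate 2 (adjusted p 0.0922 to 0.149 in limma). Probe set 239798_at ran from 7.45 to 7.52 in controls and from 7.32 to 7.53 under treatment. These groups overlapped, and the difference was -0.10 ± 0.07 (SE, adjusted p = 0.43 in limma). Averaged over its 3 probe sets, PDK1 differed by -0.37 and still passed.

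PDK3 (chrX:24465286-24550466), the remaining kinase and also a hypoxia target, had a difference below 0 on all 5 probe sets, 3 of which turned sign on the hybridisation controls described below. Its brightest, 228959_at, read 9.87, 9.89 and 10.03 in controls and 9.81, 9.65 and 9.75 under GDC-0941. The groups did not overlap, but the gap between them was narrower than the range within each. The log2 difference of -0.19 ± 0.07 (SE) missed the threshold over all probe sets (adjusted p = 0.0779 in limma). With 1 probe set per gene the same values passed narrowly (adjusted p = 0.0468 in limma), and 11 of 16 alternatives ended that call, among them leaving out any 1 array other than treated replicate 1 (0.0552 to 0.172). Probe set 206348_s_at read 7.95, 8.13 and 8.20 in controls and 7.96, 7.56 and 7.83 under treatment. Treated replicate 1 lay just above the lowest control, and the difference was -0.31 ± 0.10 (SE, adjusted p = 0.0537 in limma). It passed without treated replicate 1 or without control replicate 1 (adjusted p = 0.0235 and 0.0269 in limma). The other 3 probe sets differed by -0.05 to -0.11, with adjusted p from 0.275 to 0.708 in limma.

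PDP1 (on chromosome 8) encodes the catalytic subunit of the calcium-sensitive phosphatase that reactivates the complex. Probe set 222572_at read 7.55, 7.67 and 7.65 in controls and 7.44, 7.44 and 7.28 under GDC-0941. All treated arrays were below all controls. The log2 difference was -0.24 ± 0.07 (SE; limma adjusted p = 0.0309), from 7.62 ± 0.06 to 7.39 ± 0.10 (mean ± SD, n = 3 each). Leaving out treated replicate 3, or replicate 2 or 3 of the controls, ended this call (limma adjusted p 0.0793 to 0.145). Probe set 218273_s_at read 7.24, 7.11 and 7.13 in controls and 7.01, 7.02 and 7.11 under treatment. One treated array reached the lowest control, and the difference was -0.11 ± 0.06 (SE, adjusted p = 0.297 in limma).

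**Figure D2:**
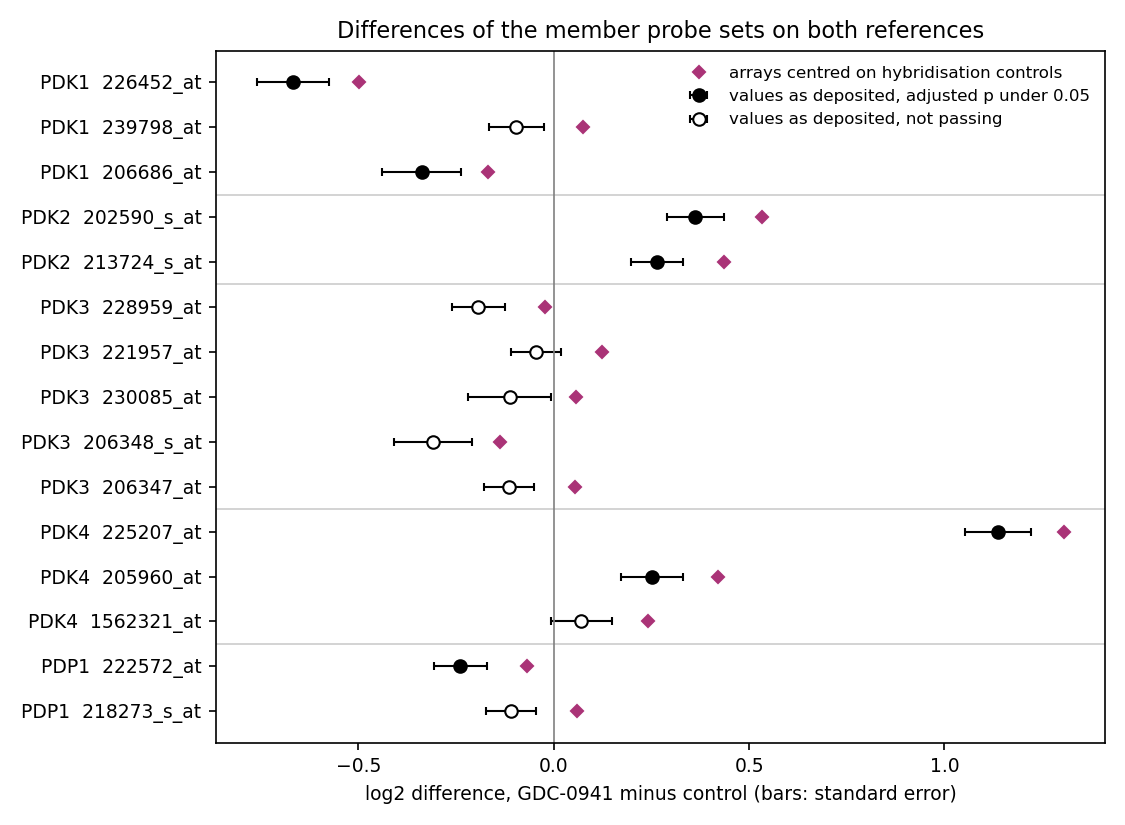
Log2 difference, GDC-0941 minus control, of the 15 probe sets (points with standard error bars, filled where the adjusted p was under 0.05) and the same difference with each array centred on hybridisation controls (diamonds). The second reference moves every probe set to the right, and 5 probe sets of PDK1, PDK3 and PDP1 cross zero.

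RMA sets each transcript against the rest of its array, so every direction depends on that reference. The 18 hybridisation controls, probe sets for a few bacterial and phage transcripts spiked in before hybridisation, gave another. Added only at that step, they do not report RNA per cell. The part of spiking or hybridisation in the shift they gave was not tested. Centring on them moved the median over all probe sets from -0.01 to 0.16. The share of higher calls went from 47.3% to 89.9%. Centring adds the same shift to every difference, and all probe sets share its error, which limma does not account for. For PDK1 226452_at the adjusted p in limma fell from 0.000482 to 3.12e-05 although the difference shrank from -0.67 to -0.50. Calls and shares on this scale are therefore not comparable with those on the values as deposited. On that scale 5 of the 15 passed, where 26.2% of all probe sets did. Of the 15, 4 were higher, against 23.6% of all, and 1 was lower, against 2.65%. PDK4 225207_at differed by 1.31, PDK2 202590_s_at by 0.53 and PDK1 226452_at by -0.50, and all 3 still passed. PDP1 222572_at differed by -0.07 and PDK3 228959_at by -0.02, and neither passed (adjusted p = 0.603 and 0.865 in limma). The sign turned in 5 of the 15 probe sets, none of them called on either scale. These were PDK1 239798_at, PDK3 221957_at, 230085_at and 206347_at, and PDP1 218273_s_at.

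With 1 probe set per gene, the one with the highest mean, 5 of 5 genes passed, where 27.8% of all 19775 genes did. PDK2 and PDK4 were higher, where 12.1% of all genes were, and PDK1, PDK3 and PDP1 were lower, where 15.6% were. On hybridisation controls 3 of the 5 passed, against 33.3% of all genes. PDK2 and PDK4 were higher, against 28.8%, and PDK1 was lower, against 4.53%. The 5 genes were also compared with each other within arrays, in 10 pairs. The log2 difference of PDK4 lay 1.81 above that of PDK1, 1.33 above PDK3, 1.38 above PDP1 and 0.77 above PDK2. That of PDK2 in turn lay 1.03 above that of PDK1. In 9 of the 10 pairs the within-array gaps of treated and control arrays did not overlap. Each of the 9 had the smallest two-sided exact permutation p that 3 against 3 allows, 0.1 (0.111 adjusted over the 10). The tenth pair, PDK3 and PDP1, differed by 0.05 (p = 0.8 in the same exact test).

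The catalytic subunit PDP1 was called lower on 1 of its 2 probe sets, a call lost in 6 of 14 alternatives. PDPR, the regulatory subunit that restrains the phosphatase, rose. Probe set 224902_at read 11.12, 11.16 and 11.28 in controls and 11.89, 11.82 and 11.91 under GDC-0941, with no overlap. In the fit with 1 probe set per gene, from which the pathway values below also come, its difference was 0.69 ± 0.06 (SE, adjusted p = 1.1e-05 in limma). PDPR 224904_at and 220236_at differed by 0.69 and 0.56, and both passed. PDPR has a close pseudogene copy, PDPR2P, so part of this signal may be read from it. Among the 6 genes of the complex with PDPR, 2 were higher and none lower, against 12.1% of all genes higher and 15.6% lower, with a median of 0.06. On hybridisation controls 3 were higher and none lower, against 28.8% and 4.53% of all genes. The E1 subunits PDHA1 and PDHB, the E2 core DLAT and the E3 subunit DLD differed by -0.07 to 0.07, and none passed. PDHX, which anchors E3 in the complex, rose by 0.21 ± 0.06 (SE, adjusted p = 0.0252 in limma). The PDHX call was lost without treated replicate 1 or 3 or control replicate 1 or 2 (adjusted p 0.0665 to 0.111 in limma).

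The kinases control how pyruvate is used. Of 10 measured genes of pyruvate and lactate handling, 5 were lower and none higher, against 15.6% of all genes lower and 12.1% higher. The list's median was -0.20, and that of all genes -0.02. On hybridisation controls 1 was lower and none higher, against 4.53% and 28.8% of all genes, with medians of -0.03 and 0.15. PCK2, the mitochondrial PEP carboxykinase, fell by 0.46 on the log2 scale (SE 0.06, adjusted p = 0.000158 in limma). LDHA, which turns pyruvate into lactate, fell by 0.36 (adjusted p = 0.000403 in limma). MPC2, part of the mitochondrial pyruvate carrier, fell by 0.28 (adjusted p = 0.00357 in limma) on the probe set with the highest mean, while its other one differed by 0.022. LDHA and MPC2 did not pass on hybridisation controls, nor did MPC2 with its probe sets averaged (-0.13).

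The branched-chain ketoacid dehydrogenase is a sister complex with its own kinase, BCKDK, a relative of the PDKs, and its own phosphatase, PPM1K. PPM1K rose by 0.80 ± 0.06 (SE, adjusted p = 3.27e-06 in limma), from 10.64, 10.57 and 10.62 in controls to 11.42, 11.33 and 11.48. Averaged over all its probe sets PPM1K differed by 0.44 and still passed. Its probe set 240050_s_at, at a low mean level of 4.51, differed by 0.03, with overlapping groups. All other PPM1K probe sets were called higher. BCKDK differed by -0.21 ± 0.08 (SE) and did not pass (adjusted p = 0.0666 in limma). It is given here as the PDK relative, chosen after its value was seen. Of the 5 genes, 3 were higher and none lower, against 12.1% of all genes higher and 15.6% lower, with a median of 0.20. On hybridisation controls 4 were higher and none lower, against 28.8% and 4.53% of all genes. BCKDHB, of the E1 subunit, rose by 0.25 (adjusted p = 0.0371 in limma). It no longer passed when replicate 1 or 2 of the treated arrays, or 1 or 3 of the controls, was left out (0.0515 to 0.135). In the fit on all probe sets the same BCKDHB values did not pass (adjusted p = 0.0612 in limma). The other BCKDHB probe set differed by 0.17, with overlapping groups (adjusted p = 0.248 in limma). DBT, the E2 core, rose by 0.20 (adjusted p = 0.0159 in limma), a call lost without treated replicate 3 or control replicate 3 (0.072 and 0.0573). Taking DBT from the brightest probe set without the manufacturer's mark for several transcripts gave -0.0041, which did not pass.

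Downstream of the complex, of 14 measured genes of the citric acid cycle, 1 was higher and 3 lower, against 12.1% of all genes higher and 15.6% lower. The list's median was -0.04, and that of all genes -0.02. On hybridisation controls 3 were higher and 1 lower, against 28.8% and 4.53% of all genes, with medians of 0.13 and 0.15. IDH3A, a subunit of NAD-dependent isocitrate dehydrogenase, fell by 0.94 on the log2 scale (SE 0.06, adjusted p = 1.83e-06 in limma). Its unmarked probe set differed by -0.12 and did not pass, and the average over its probe sets was -0.56. OGDH, the E1 of the related 2-oxoglutarate dehydrogenase, fell by 0.24 (adjusted p = 0.0108 in limma) and did not pass on hybridisation controls or with its probe sets averaged (-0.13). SUCLG2, of succinyl-CoA synthetase, rose by 0.35 (adjusted p = 0.000616 in limma).

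PDK4 is often induced together with fat oxidation, so 17 genes of mitochondrial fatty acid oxidation were set beside it. Of these, 2 were higher and 2 lower, against 12.1% of all genes higher and 15.6% lower. The list's median was -0.04, and that of all genes -0.02. On hybridisation controls 5 were higher and 1 lower, against 28.8% and 4.53% of all genes, with medians of 0.13 and 0.15. These shares and medians were near those of all genes. ACADM, medium-chain acyl-CoA dehydrogenase, rose by 0.49 ± 0.06 (SE, adjusted p = 8.59e-05 in limma). ETFB, an electron carrier of this pathway, fell by 0.49 (adjusted p = 0.000164 in limma). SLC25A20, the carnitine carrier, fell by 0.26 (adjusted p = 0.00619 in limma) and did not pass on hybridisation controls.

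**Figure D3:**
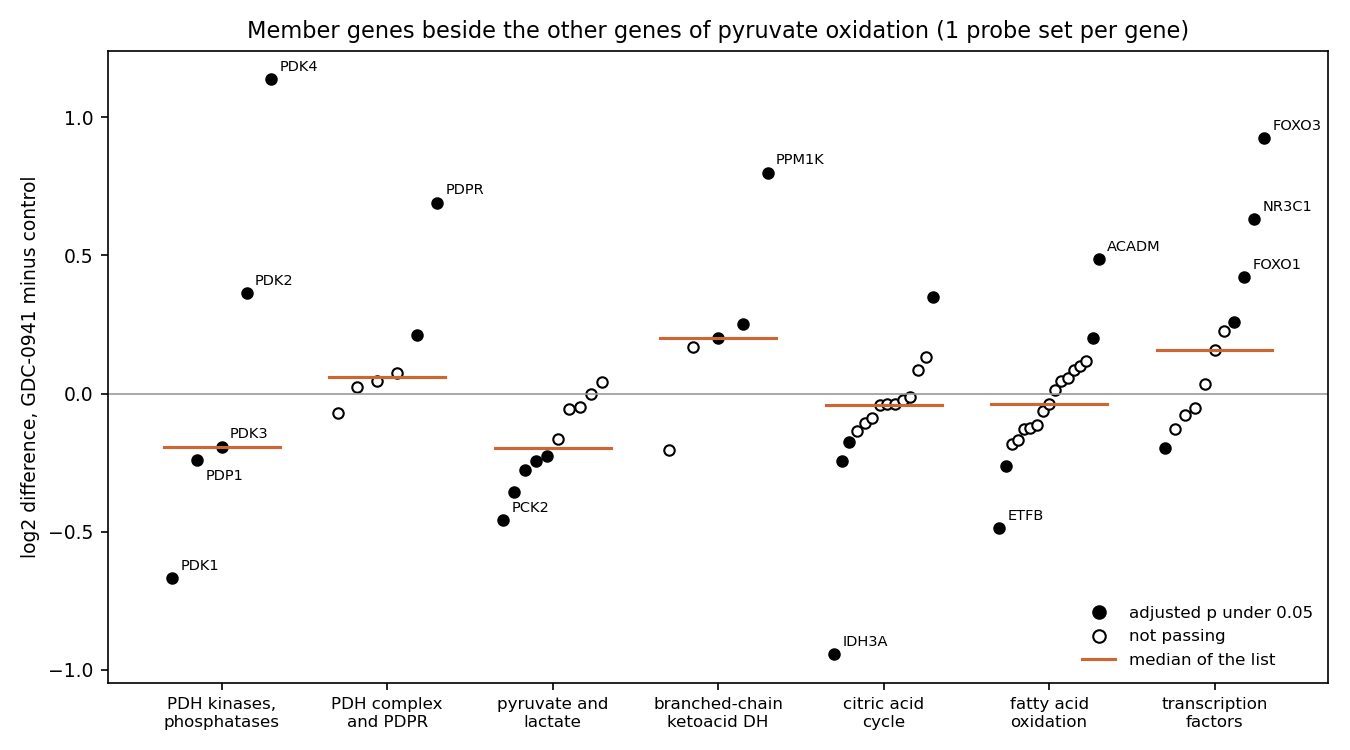
Log2 difference, GDC-0941 minus control, with 1 probe set per gene, for the kinases and phosphatases and for the 6 pathway lists (points, filled where the adjusted p was under 0.05; bars at list medians). PDK4 at 1.14 lies above every other gene plotted and IDH3A at -0.94 below every other.

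Of 11 measured transcription factors and coactivators reported to control PDK genes, 4 were higher and 1 lower, against 12.1% of all genes higher and 15.6% lower. The list's median was 0.16, and that of all genes -0.02. On hybridisation controls 6 were higher and none lower, against 28.8% and 4.53% of all genes, with medians of 0.33 and 0.15. FOXO3 differed by 0.93 ± 0.05 (SE, adjusted p = 7.24e-07 in limma) and FOXO1 by 0.42 ± 0.08 (SE, adjusted p = 0.00132 in limma). FOXO3 was called higher on 3 of its 4 probe sets and FOXO1 on 1 of its 3. Averaged over their probe sets FOXO3 differed by 0.55 and FOXO1 by 0.18, and both still passed. NR3C1, the glucocorticoid receptor, which can induce PDK4, rose by 0.63 ± 0.06 (SE, adjusted p = 1.72e-05 in limma). The 1 unmarked probe set of NR3C1 had a low mean level, 4.06, differed by 0.05 and did not pass. All other NR3C1 probe sets were called higher, at 0.30 to 0.95. HIF1A, which encodes the regulated subunit of HIF-1, differed by 0.16 ± 0.06 (SE) and did not pass (adjusted p = 0.0629 in limma). It read above all controls on every treated array. On hybridisation controls HIF1A passed, at 0.33. The HIF-1 protein was not measured. The factor called lower was ESRRA, an oestrogen-related receptor, at -0.20 ± 0.06 (SE, adjusted p = 0.0203 in limma).

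The profiles most like that of PDK4 over the 6 arrays were those of HBP1, ARRDC3 and ATOSA. Likeness was the root mean square distance between levels centred on each gene's own mean, and it was 0.0602, 0.0625 and 0.0853 on the log2 scale. HBP1, a transcriptional repressor of cell cycle genes, differed by 1.15 between the groups, ARRDC3, an alpha-arrestin, by 1.19 and ATOSA by 1.06. HBP1 differed by 0.33 on its unmarked probe set of highest mean and by 0.54 averaged over its probe sets. With 2 groups of 3 arrays, this measure mostly finds genes with a like difference between the groups.

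**Figure D4:**
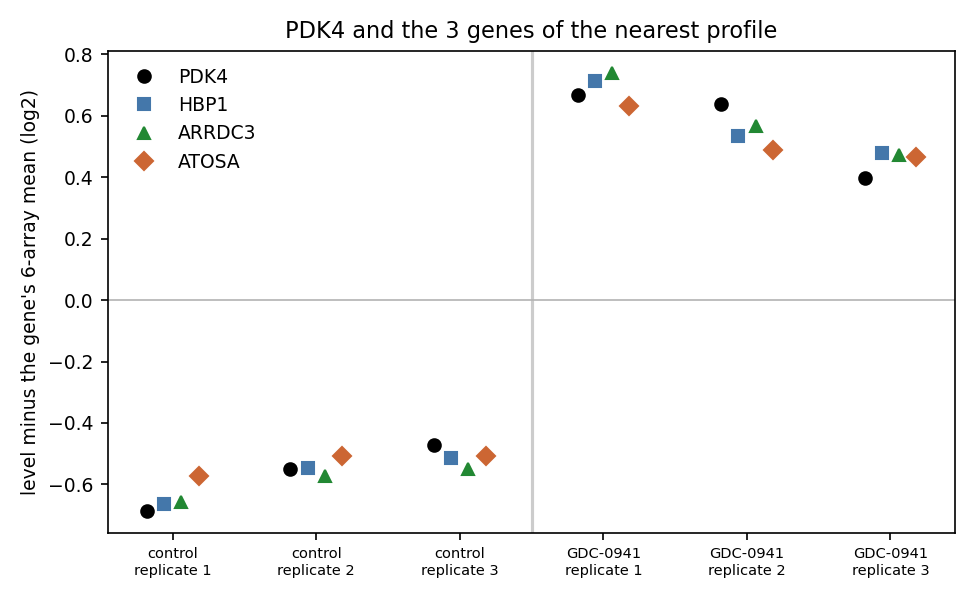
Level of PDK4 and of the 3 genes with the nearest profile on each of the 6 arrays, centred on each gene's mean (vertical axis, log2). All 4 genes lie below 0 on the 3 control arrays and above 0 on the 3 GDC-0941 arrays.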

How the data were processed

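RNA of T47D cells was measured on 6 oligonucleotide arrays (3 GDC-0941, 3 control). Biotinylated cRNA was made from 6 ug of total RNA, per the labels' protocols. The deposited table holds log2 values that the authors made with RMA, per the submitters' processing notes, and their log2 scale was inferred from their range (3.00 to 14.81). For RMA, neither version nor chip definition is given in the sources used here. No detection calls were used.

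Of 54675 probe sets, 62 manufacturer's controls were left out. The remaining 54613 comprise 41091 with 1 annotated gene, 1801 with several and 11721 with none. Of the 41091, 41037 took their symbol from RefSeq (GRCh38.p14) through the Entrez identifier, whether or not it had changed. The test was limma 3.58.1 (lmFit, eBayes, two-sided; R 4.3.3) on all probe sets and on 1 probe set for each of 19775 genes, without a filter. Single within-array gaps were tested by exact permutation. The fit was tested on simulated data. The SD of the difference between arrays was 0.118 to 0.166 within groups and 0.218 to 0.266 between groups. The 3 arrays per group limit the precision.

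The genes and lists were chosen with earlier results of these data known. Named were every kinase and phosphatase probe set and PDPR, FOXO1, FOXO3 and HIF1A. For each list, the 3 called genes with the largest change were named, and for PDK4 its 3 nearest profiles. The core subunits of the complex, BCKDK and ESRRA are given beyond this rule. As alternatives, the fit was run with a replicate block, without each array, with other centring, normalization, variance models and probe set choices, with a level filter and at an adjusted p under 0.01. Figures were drawn with matplotlib 3.10.9.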

Additional observations from a re-analysis of the deposited data

How the results depend on the processing

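PDK4 225207_at, PDK2 202590_s_at and PDK1 226452_at kept their direction and their call in every alternative they entered. Each of the other 4 calls among the 15 was lost in 4 to 11 alternatives. The labels do not say that a replicate number marks a shared day or culture, and deviations of same-numbered arrays correlated at -0.34 to 0.14, so the numbers were not taken as pairs. With the replicate block, 3 of the 15 probe sets were higher and 2 lower, and 4043 and 4471 of all probe sets. On hybridisation controls 1 of the 15 was lower, and 12875 of all probe sets were higher and 1445 lower. By gene 5688 were higher and 895 lower, 1 of the 5 genes lower, and 21 pathway genes higher and 3 lower. With array weights, 7999 probe sets were higher and 8902 lower, 4235 genes higher and 5176 lower, 5 of the 15 probe sets lower and 17 pathway genes lower. A variance trend also gave 5 of the 15 lower and 17 pathway genes lower. At an adjusted p under 0.01, 2937 probe sets were higher and 3167 lower, 2 of the 15 higher and 1 lower, 1 of the 5 genes lower and 7 pathway genes lower. Above the median level, 2 of the 15 were higher, and 1 of the 5 genes was higher and 1 lower, because PDK1, PDK4 and PDP1 were below that level by gene and not tested there. Leaving out 1 array, 2 to 3 of the 15 were higher and 1 to 4 lower, and 1 to 3 of the 5 genes lower. With probe sets not marked by the manufacturer taken first, DBT differed by -0.0041 and MPC2 by 0.022. These read other probe sets of the same genes.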
